A study of Homo sapiens with 32 samples.

Results

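The genes described here are the replication-dependent histone genes, which lie in the HIST1, HIST2, HIST3 and HIST4 clusters of the human genome. They were taken from the deposited table by name: the symbol starts with HIST1H, HIST2H, HIST3H or HIST4H, and the gene reached more than 1 CPM (reads per 1000000 counted) in at least 2 of 32 libraries. Of 89 such rows, 63 met the level rule, against 17011 of all 35238 rows. The 63 genes comprise 5 of the linker histone H1 class, 16 of H2A, 19 of H2B, 11 of H3 and 12 of H4, and 5 of them are pseudogenes by the RefSeq annotation. The H3 genes HIST2H3A and HIST2H3C held the same reads in all 32 libraries. Sums and counts over the 63 genes, and over the H3 class, thus take 1 set of values as 2 genes. The other 26 rows stayed below the rule. Among these 26 were 13 pseudogenes, and 2 had no read in any library.

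Replication-dependent histones package newly copied DNA, and their messages accumulate in S phase and are degraded when replication stops. These messages end in a conserved stem-loop in place of a poly(A) tail. The stem-loop is bound by SLBP, the end is cut with the help of the U7 small nuclear ribonucleoprotein, and transcription depends on NPAT at histone locus bodies. Many H2A and H2B genes stand head to head and share the short stretch between their start sites. Messages without a tail are kept or lost according to how a library is made; here ribosomal RNA was depleted with FastSelect before an mRNA kit was used, per the labels.

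RNA came from 4 lines of endometrial cancer that had received vehicle, paclitaxel, SM08502 or both drugs for 24 h. Paclitaxel binds and stabilises microtubules, and SM08502 is an inhibitor of CDC-like kinases, which act on splicing factors. Each of 16 groups holds 2 libraries, from cells plated in duplicate. Nothing in the labels says that duplicates were independent cultures, so the p-values measure only the spread between these libraries.

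Ishikawa is labelled wild type for CTNNB1, the gene of β-catenin, and the other lines, Ishikawa-S33Y, HEC265 and SNGM, are labelled as mutated. How Ishikawa-S33Y was made, and from how many clones, is not given in the sources used here. Vehicle was 0.1% DMSO. Each drug was given at the IC50 of the line. For paclitaxel and SM08502 this was 11 nM and 80 nM in Ishikawa, 6 nM and 85 nM in Ishikawa-S33Y, 5.6 nM and 149 nM in HEC265, and 11.7 nM and 350.7 nM in SNGM. The combination used both doses, so drug changes in different lines were measured at different doses. With 1 wild-type line, genotype and line cannot be told apart. Libraries used 350 ng of RNA for Ishikawa and 500 ng for the other lines, so input and line cannot be told apart either.

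In 30 libraries between 13.0 M and 34.1 M reads were counted (M, 1000000 reads). Replicate 2 of the combination was shallower, at 1.61 M in SNGM and 2.99 M in Ishikawa-S33Y. The lines carried epithelial markers: 8 of 8 averaged above 1 CPM in Ishikawa, Ishikawa-S33Y and HEC265, and 7 in SNGM, where SOX17 stayed below 1 CPM. The summed level of 8 stromal markers was 715 to 1166 CPM in Ishikawa-S33Y, 33.1 to 198 CPM in Ishikawa and at most 10.2 CPM in SNGM and HEC265, with LUM, PDGFRB and POSTN below 1 CPM in every library. The summed level of 8 leukocyte markers was at most 14.02 CPM. In bulk RNA, fewer cells that express a gene and less RNA per cell cannot be told apart.

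The promoters show what head-to-head genes share. RefSeq windows run from 250 bases before to 50 bases after a start site (GRCh38.p14), and 53 of the 63 genes have one. An octamer, the letters ATTTGCAT or on the other strand ATGCAAAT, stood in 23 of 53 windows (43.4%), against 1.77% of all 35116 windows. It was in 12 of 16 H2B windows, 10 of 15 H2A windows and 1 of 9 H3 windows, and in 0 of 4 H1 and 0 of 9 H4 windows. The H3 match is that of HIST1H3D, which RefSeq also starts at the start of HIST1H2AD, so it is the promoter of HIST1H2AD counted again. Without HIST1H3D the counts are 0 of 8 H3 windows and 22 of 52 in all (42.3%). HIST2H4A and HIST2H4B likewise have identical windows. The CCAAT box (CCAAT or ATTGG) stood in 84.9% of the windows against 34.6% of all windows, but in 1 of 9 for H4. The TATA letters (TATAAA or TTTATA) stood in 69.8% against 11.5%. The window of a gene can cover part of that of its head-to-head neighbour, so such matches are not independent, and the letters TTTATAAA hold both TATA forms.

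The sequences below set pairs that differed between lines beside a pair read in every line, and show both starts that RefSeq gives for HIST1H3D, the gene whose reads were found in 1 line. The first 4 are the plus strand between the start sites of a head-to-head pair, and the last is the 250 bases before the start of HIST1H3D's own first exon, on the minus strand. Capitals mark the octamer, CCAAT and TATA letters on either strand.
HIST1H2BG and HIST1H2AE: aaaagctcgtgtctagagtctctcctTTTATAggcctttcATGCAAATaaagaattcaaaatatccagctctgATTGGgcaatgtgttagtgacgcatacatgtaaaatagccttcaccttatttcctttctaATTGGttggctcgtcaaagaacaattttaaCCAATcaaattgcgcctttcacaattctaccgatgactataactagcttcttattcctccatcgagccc
HIST1H2AJ and HIST1H2BM: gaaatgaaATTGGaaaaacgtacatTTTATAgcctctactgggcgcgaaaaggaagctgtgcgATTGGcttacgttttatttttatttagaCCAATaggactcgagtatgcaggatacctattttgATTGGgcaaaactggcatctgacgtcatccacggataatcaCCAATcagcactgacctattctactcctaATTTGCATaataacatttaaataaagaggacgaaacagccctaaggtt
HIST1H2BJ and HIST1H2AG: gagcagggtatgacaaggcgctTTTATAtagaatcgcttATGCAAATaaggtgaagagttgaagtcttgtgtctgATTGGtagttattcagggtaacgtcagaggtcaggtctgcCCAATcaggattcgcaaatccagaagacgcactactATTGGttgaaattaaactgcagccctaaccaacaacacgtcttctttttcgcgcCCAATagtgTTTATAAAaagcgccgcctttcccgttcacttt
HIST1H2AD and HIST1H2BF: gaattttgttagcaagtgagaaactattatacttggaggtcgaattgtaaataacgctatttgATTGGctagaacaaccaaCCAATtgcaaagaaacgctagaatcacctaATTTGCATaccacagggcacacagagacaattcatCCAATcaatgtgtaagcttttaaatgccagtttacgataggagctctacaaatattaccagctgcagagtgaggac
HIST1H3D: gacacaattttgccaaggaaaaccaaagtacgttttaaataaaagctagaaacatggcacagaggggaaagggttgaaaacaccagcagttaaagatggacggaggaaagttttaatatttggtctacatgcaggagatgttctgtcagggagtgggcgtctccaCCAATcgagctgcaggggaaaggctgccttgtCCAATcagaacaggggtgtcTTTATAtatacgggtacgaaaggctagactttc
In GRCh38.p14 the stretch of HIST1H2BG and HIST1H2AE is chr6:26216689-26216920, that of HIST1H2AJ and HIST1H2BM is chr6:27814778-27815021, that of HIST1H2BJ and HIST1H2AG is chr6:27132796-27133042, and that of HIST1H2AD and HIST1H2BF is chr6:26199294-26199515. The stretch before HIST1H3D is chr6:26197287-26197536. The octamer occurs 1 time in each shared stretch and 0 times in the stretch before HIST1H3D. All of these stretches hold CCAAT letters, and that of HIST1H2AD and HIST1H2BF holds 0 TATA matches. A match is a run of letters, not a measured binding site.

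**Figure D1:**
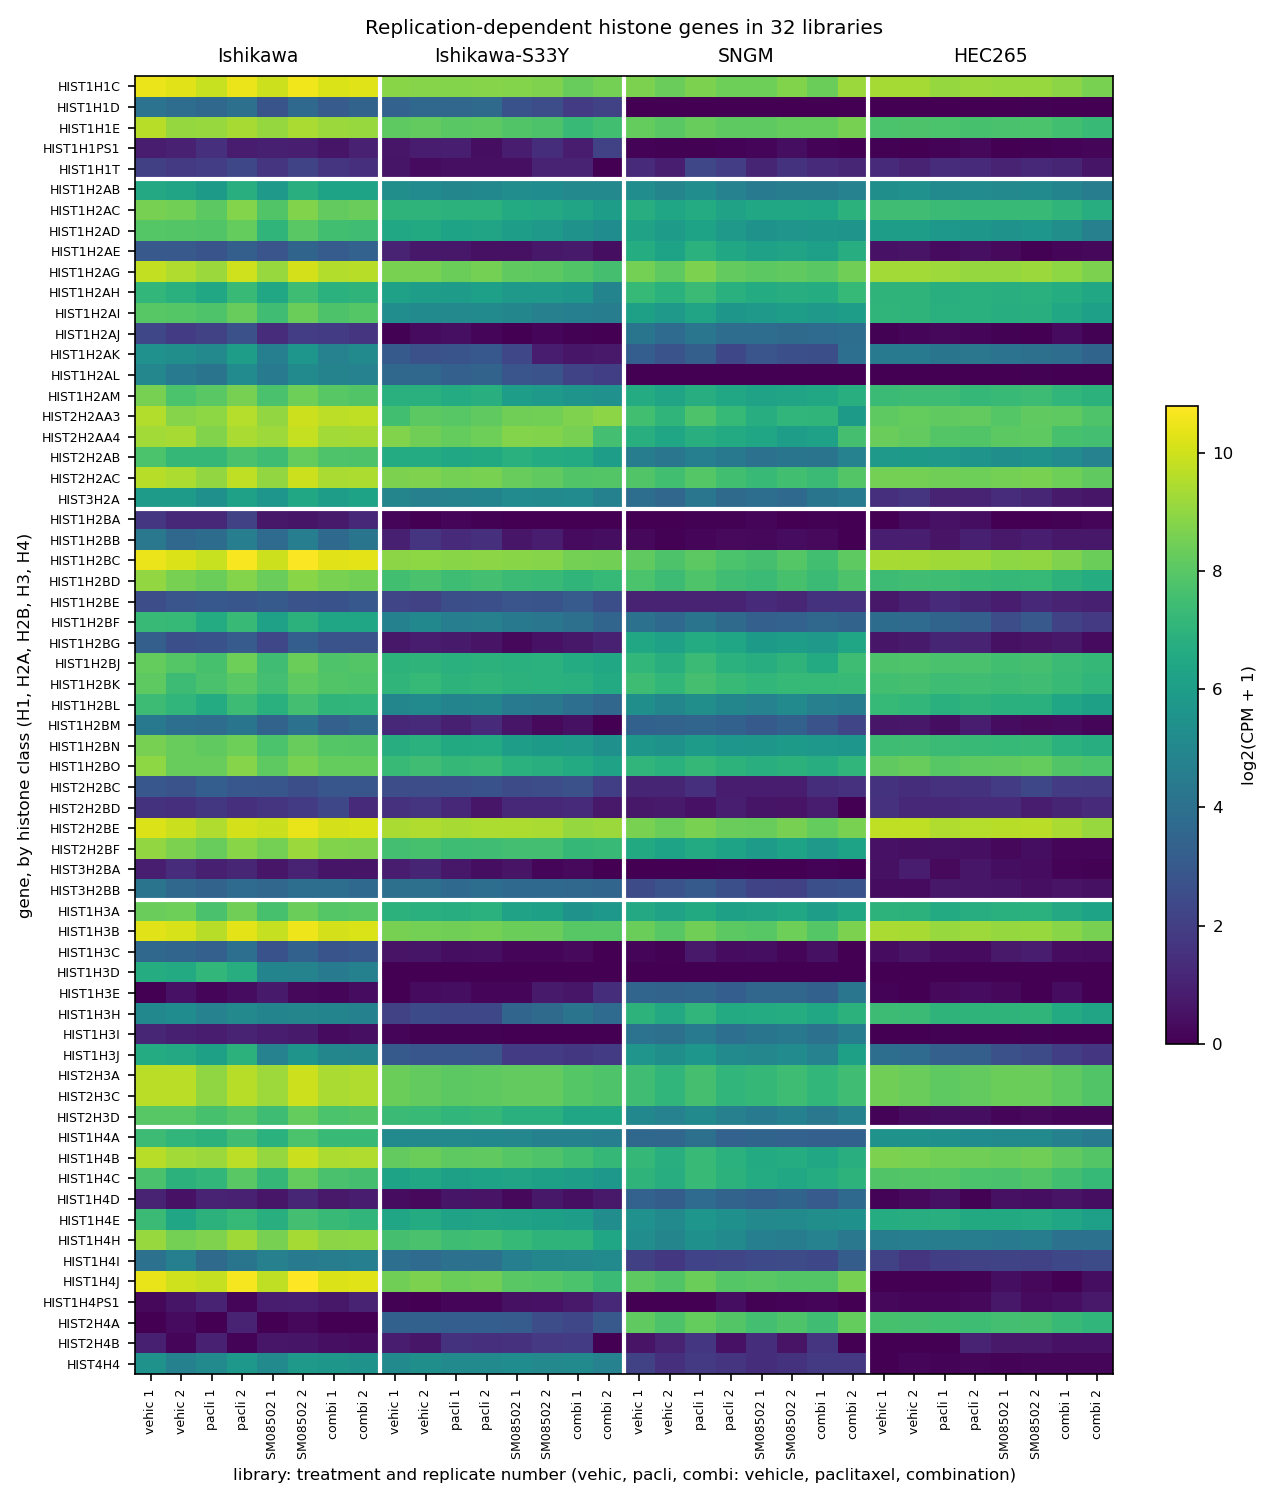
Level of each of the 63 histone genes (rows, grouped as H1, H2A, H2B, H3 and H4) in each of 32 libraries (columns, 8 for each line), as log2(CPM + 1). Rows such as HIST1H3D, HIST1H4J and HIST2H4A are near 0 under every treatment in at least 1 line and well above it in another.

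On vehicle, Ishikawa gave the most histone reads. As a share of all reads, the 63 genes summed to 1.96% and 1.62% in Ishikawa, 0.864% and 0.860% in HEC265, 0.734% and 0.756% in Ishikawa-S33Y, and 0.588% and 0.466% in SNGM. Both Ishikawa libraries were above every vehicle library of the other lines. The Ishikawa mean was 2.08 times that of HEC265, 2.40 times that of Ishikawa-S33Y and 3.39 times that of SNGM. With 2 libraries against 2 an exact two-sided permutation test cannot go below p = 0.333, so the sums have no test.

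A measure of RNA length also set Ishikawa apart. For every library a length score was taken, which subtracts the average log2(CPM + 1) of 79 ribosomal protein genes from that of 52 long-transcript genes. It was -2.70 and -2.22 in the Ishikawa vehicle libraries, and over all treatments it ran from -3.10 to -1.47 in Ishikawa, -1.76 to -1.13 in Ishikawa-S33Y, -1.09 to -0.62 in HEC265 and -0.75 to -0.02 in SNGM. HEC265 thus had a higher score and a higher share than Ishikawa-S33Y. Within Ishikawa the paclitaxel libraries scored -1.47 and -3.09 and gave 1.33% and 2.04% histone reads. The SM08502 libraries scored -2.21 and -3.10 and gave 1.34% and 2.25%. In these groups the median histone gene was 0.55 and 0.68 higher in replicate 2 than in replicate 1 on the log2 scale, so the duplicate with the lower score had the higher share. Whether the length balance accounts for the difference between lines was not tested beyond the covariate fits given with the counts.

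**Figure D2:**
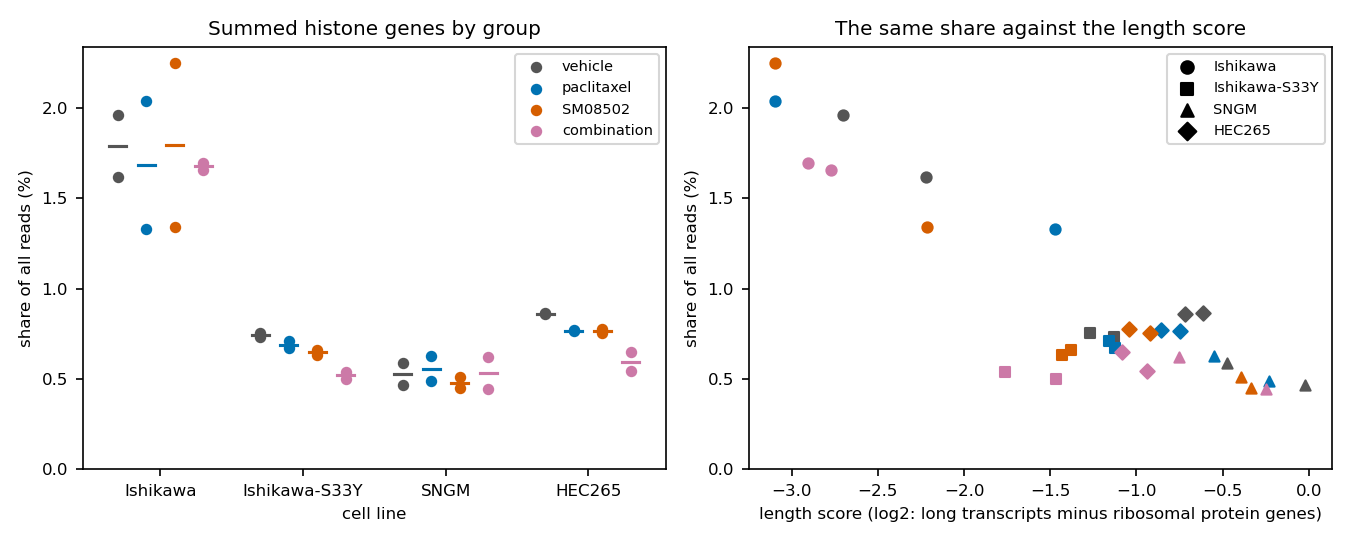
Left, summed share of all reads (%) from the 63 histone genes in each library, by line and treatment, with the mean of each pair as a bar. Right, the same share against the length score (log2 units): the 8 Ishikawa libraries lie at 1.33% and above and at scores of -1.47 and below, while the other 24 libraries lie at 0.864% and below.

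Most single histone genes were lower than in Ishikawa. In Ishikawa-S33Y 48 of 63 genes were lower and 1 was higher (limma, adjusted p under 0.05), where 48.3% of all tested genes were called. The median histone gene differed by -1.20 on the log2 scale, against -0.05 over all tested genes. In SNGM 51 were lower and 8 higher (66.8% of all tested genes called), with medians of -1.75 and -0.13. In HEC265 47 were lower and 2 higher (63.3% of all tested genes called), with medians of -1.08 and -0.17. After each library was re-centred on its median gene, the medians over all tested genes were -0.02, 0.01 and 0.04, and those of the histone genes -1.17, -1.61 and -0.86. With the length score as a covariate the histone medians were -0.61, -0.82 and -0.52, with 36, 36 and 30 genes lower and 2, 10 and 11 higher. In that fit 27.9%, 38.2% and 37.2% of all tested genes were lower and 10.6%, 16.5% and 15.8% higher.

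The gene that drew the most reads of its class shows the size of these differences. HIST1H1C, a linker histone gene at chr6:26055740-26056470, was at 1406 and 1277 CPM in Ishikawa, 636 and 635 in HEC265, 472 and 459 in Ishikawa-S33Y, and 401 and 321 in SNGM. HIST1H3B, a core H3 gene, was at 1261 and 1107 CPM in Ishikawa, 681 and 664 in HEC265, 382 and 369.7 in Ishikawa-S33Y, and 331 and 250.5 in SNGM. For both the Ishikawa libraries were above all others and HEC265 came next. HIST2H2BE, an H2B gene of the HIST2 cluster, was closer between lines, at 1185 and 975 CPM in Ishikawa and 874 and 874 in HEC265. That difference of -0.30 (SE 0.18) was not called (limma, adjusted p = 0.163). HIST1H2AG, the H2A gene with the most reads, was at 900.02 and 721 CPM in Ishikawa, 617 and 625 in HEC265, 391 and 394 in Ishikawa-S33Y, and 365 and 276 in SNGM, and HEC265 was not called different from Ishikawa (-0.38, SE 0.25, adjusted p = 0.205).

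Among the other lines the order was less uniform. SNGM was below Ishikawa-S33Y at 29 genes and above it at 12 (60.8% of all tested genes called). HEC265 was above SNGM at 27 genes and below it at 15 (54.9% of all tested genes called). HIST1H2BL and HIST1H4A, an H2B and an H4 gene, stood highest over SNGM there, by 2.04 and 1.94 on the log2 scale. Between HEC265 and Ishikawa-S33Y 15 genes were higher in HEC265 and 17 lower (58.0% of all tested genes called). The median of -0.06 became 0.12 after re-centring, with 18 higher and 13 lower, so no direction is given for that pair. With the length score as a covariate SNGM was below Ishikawa-S33Y at 27 and above it at 21, where 37.7% of all tested genes were lower and 26.6% higher.

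Single histone genes were on in some lines and off in others. Counting a gene as on in a line when all 8 libraries were above 5 CPM, and as off when all 8 were under 1 CPM, 16 of 63 histone genes (25.4%) were on in a line and off in another, against 1127 of 17011 tested genes (6.63%). In every line 30 of the 63 were on. Ishikawa had 48 on and 2 off, SNGM 44 and 10, Ishikawa-S33Y 38 and 6, and HEC265 33 and 20. The level rule asked for reads in only 2 libraries, so these counts describe the genes that it kept. The states in SNGM and Ishikawa-S33Y also rest in part on their shallow libraries, where a few reads can set a state.

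HIST1H3D, an H3 gene, was read only in Ishikawa. It was at 101 and 95.7 CPM on vehicle, 139.97 and 104 with paclitaxel, 28.5 and 27.1 with SM08502, and 20.1 and 25.7 with the combination. The 24 libraries of Ishikawa-S33Y, HEC265 and SNGM held 0 reads for it. Set against 3 reads over the vehicle libraries of a line, the vehicle level in Ishikawa was at least 1447-fold higher than in Ishikawa-S33Y, 1586-fold higher than in HEC265 and 2146-fold higher than in SNGM. These bounds cover counting error only, and since HIST1H3D was chosen for this pattern they are a description with no test.

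HIST1H3D (H3C4 in RefSeq, chr6:26196784-26199293, minus strand) spans all of HIST1H2AD (H2AC7, chr6:26198784-26199293). RefSeq gives HIST1H3D a start at 26199293, shared with HIST1H2AD, and another at 26197286, and how reads in the overlap were assigned is not given in the sources used here. HIST1H2AD, an H2A gene, was on in all lines, at 245 and 237 CPM in Ishikawa, 64.01 and 64.2 in HEC265, 83.9 and 91.9 in Ishikawa-S33Y, and 73.8 and 60.8 in SNGM. The sum of both genes was 339 ± 9.17 CPM in Ishikawa, 64.1 ± 0.169 in HEC265, 87.9 ± 5.70 in Ishikawa-S33Y and 67.3 ± 9.14 in SNGM (SD, n = 2), so Ishikawa stayed highest whichever gene the reads were given to.

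HIST1H4J, an H4 gene at chr6:27824092-27824480, was nearly missing from HEC265. It was at 1378 and 1019 CPM in Ishikawa, 350.2 and 402 in Ishikawa-S33Y and 279 and 231 in SNGM. HEC265 held 0 reads on vehicle and 20 reads over all 8 libraries, and the level in SNGM was at least 4110-fold higher than 3 reads over the HEC265 vehicle libraries allow. HIST2H4A, another H4 gene (chr1:149832657-149833052), ran the other way, at 0 and 0.230 CPM in Ishikawa, 197 and 193 in HEC265, 9.12 and 9.27 in Ishikawa-S33Y, and 286 and 217 in SNGM. HEC265 and SNGM were both above all libraries of Ishikawa and Ishikawa-S33Y. Against Ishikawa it was higher by 3.20 (SE 0.28) in Ishikawa-S33Y, 7.47 in HEC265 and 7.82 in SNGM on the log2 scale (limma, adjusted p = 1.25e-08, 8.42e-16 and 4.02e-16). H4 genes encode the same protein and share much sequence, so how reads split between copies is uncertain. All 12 H4 genes together gave 2866 ± 652 CPM in Ishikawa, 1152 ± 95.3 in Ishikawa-S33Y, 1008 ± 2.79 in HEC265 and 849 ± 138 in SNGM on vehicle (SD, n = 2).

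A pair of neighbours on chromosome 1 was off in HEC265. HIST2H2BF, an H2B gene at chr1:149782689-149812370, was at 517 and 399 CPM in Ishikawa, 0.445 and 0.347 in HEC265, 186 and 199 in Ishikawa-S33Y, and 93.3 and 76.4 in SNGM. HIST2H3D, an H3 gene at chr1:149813225-149813693, was at 252 and 255 CPM in Ishikawa, 0.0890 and 0.232 in HEC265, 163 and 152 in Ishikawa-S33Y, and 31.8 and 26.4 in SNGM. Both HEC265 libraries were below every library of the other lines for either gene, and HIST2H2BF differed from Ishikawa by -8.35 (SE 0.20, adjusted p = 2.99e-19). HIST3H2BB, an H2B gene of the HIST3 cluster, had a median over 8 libraries of 0.427 CPM in HEC265 against 12.1 in Ishikawa. For HIST4H4, an H4 gene at chr12:14770720-14771131, these medians were 0.117 and 45.1 CPM.

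HIST1H1D, a linker histone gene (chr6:26234212-26234987), and HIST1H2AL, an H2A gene (chr6:27865317-27865798), were on in Ishikawa and off in HEC265 and SNGM. On vehicle HIST1H1D was at 16.2 and 13.4 CPM in Ishikawa and 9.51 and 11.4 in Ishikawa-S33Y, with 0 reads in the 8 SNGM libraries and 1 read in the 8 of HEC265. HIST1H2AL was at 30.6 and 21.3 CPM in Ishikawa and 11.5 and 11.2 in Ishikawa-S33Y, with the same 0 reads and 1 read. The Ishikawa level was at least 323-fold higher for HIST1H1D and 566-fold higher for HIST1H2AL than 3 reads over the SNGM vehicle libraries. By the rule over all 8 libraries, 6 genes were on in Ishikawa alone, these 2 with HIST1H3D, HIST1H2BM, HIST1H2BB and HIST1H3C. The rule counts treated libraries too. On vehicle HIST1H1D and HIST1H2AL were above 5 CPM in Ishikawa-S33Y as well. HIST1H2BM had a median of 9.25 CPM in SNGM, where its lowest library was at 3.73 CPM. HIST1H2BB, an H2B gene, and HIST1H3C, an H3 gene, had medians of 15.1 and 9.07 CPM. The other lines had medians of at most 0.888 CPM for HIST1H2BB and 0.290 CPM for HIST1H3C.

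The head-to-head pair of HIST1H2BG and HIST1H2AE was highest in SNGM. HIST1H2AE, an H2A gene, was at 7.03 and 7.06 CPM in Ishikawa, 0.445 and 0.502 in HEC265, 1.03 and 0.629 in Ishikawa-S33Y, and 100.3 and 74.7 in SNGM. HIST1H2BG, the H2B gene across the shared stretch, was at 8.63 and 5.22 CPM in Ishikawa, 0.579 and 0.695 in HEC265, 0.641 and 0.838 in Ishikawa-S33Y, and 86.1 and 71.03 in SNGM. SNGM was highest and Ishikawa next for both genes, while HEC265 and Ishikawa-S33Y lay between 0.445 and 1.03 CPM. SNGM exceeded Ishikawa-S33Y by 5.59 (SE 0.23) for HIST1H2AE and 5.51 (SE 0.26) for HIST1H2BG (limma, adjusted p = 5.19e-15 and 3.33e-14). By the rule of 5 CPM in all 8 libraries HIST1H2AE was on in Ishikawa as well, and HIST1H2BG in SNGM alone. The other 4 genes on in SNGM alone were HIST1H2AJ, HIST1H3E, HIST1H3I and HIST1H4D, with medians of 13.4, 10.5, 16.7 and 9.62 CPM.

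Some H3 genes with reads in every line also differed between lines. HIST1H3H was at 31.8 and 37.3 CPM in Ishikawa, 168 and 162 in HEC265, 3.20 and 4.40 in Ishikawa-S33Y, and 123 and 89.5 in SNGM, so that HEC265 exceeded Ishikawa-S33Y by 5.12 (SE 0.19, adjusted p = 4.13e-16) and Ishikawa by 2.23 (adjusted p = 8.06e-10). HIST1H3J was at 98.7 and 89.05 CPM in Ishikawa, 14.02 and 12.7 in HEC265, 7.39 and 6.41 in Ishikawa-S33Y, and 47.8 and 39.8 in SNGM, and Ishikawa-S33Y differed from Ishikawa by -3.59 (SE 0.31, adjusted p = 8.83e-09). The first was thus highest in HEC265 and the second in Ishikawa, while both were lowest in Ishikawa-S33Y.

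In most head-to-head pairs both genes had the same order of lines by vehicle mean, but not in every pair. The order differed between HIST1H2AJ and HIST1H2BM, HIST1H2AK and HIST1H2BN, HIST2H2BE and HIST2H2AC, and HIST3H2A and HIST3H2BB. HIST1H2AJ averaged 14.9 ± 3.11 CPM and HIST1H2BM 9.54 ± 0.307 CPM in SNGM (SD, n = 2), but in Ishikawa they averaged 3.32 ± 0.890 and 17.04 ± 3.80 CPM. HIST1H2BJ and HIST1H2AG were on in every line, with means of 272 ± 39.5 and 811 ± 126 CPM in Ishikawa, 221 ± 1.14 and 621 ± 5.88 in HEC265, 127 ± 2.25 and 392 ± 2.02 in Ishikawa-S33Y, and 127 ± 20.9 and 320 ± 62.9 in SNGM (SD, n = 2). The octamer stood in 46.7% of the windows of genes on in a line and off in another, and in 42.1% of the other windows. Without HIST1H3D the first share is 42.9%. The CCAAT letters stood in 80.0% and 86.8%, and the TATA letters in 73.3% and 68.4%.

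Of SLBP, NPAT and CASP8AP2, which act on histone messages, NPAT had the order of the histone share over the lines, and the others did not. That order is not particular to NPAT, since H2AFZ, given below, had it too. SLBP, which binds the stem-loop, was at 63.7 and 64.3 CPM in Ishikawa, 85.9 and 84.4 in HEC265, 35.2 and 33.9 in Ishikawa-S33Y, and 82.2 and 72.6 in SNGM. It was thus higher in HEC265 than in Ishikawa (a log2 difference of 0.41, adjusted p = 0.000653) and lower in Ishikawa-S33Y (-0.87, adjusted p = 1.8e-07). NPAT, the activator of histone transcription, was at 90.1 and 102 CPM in Ishikawa, 74.3 and 72.7 in HEC265, 65.3 and 66.6 in Ishikawa-S33Y, and 62.5 and 59.9 in SNGM. The pairs of NPAT values did not overlap between lines. HEC265 was called lower than Ishikawa (-0.38, adjusted p = 0.00293), while the steps from HEC265 to Ishikawa-S33Y and from there to SNGM were not called (adjusted p = 0.216 and 0.39). CASP8AP2, or FLASH, which links the U7 particle to the cleavage machinery, was at 29.97 and 42.4 CPM in Ishikawa, 38.3 and 42.8 in HEC265, 35.1 and 34.3 in Ishikawa-S33Y, and 47.3 and 55.03 in SNGM. CCNE2, a cyclin of entry into S phase, was at 34.6 and 42.8 CPM in Ishikawa and between 12.7 and 13.8 CPM in the other vehicle libraries, and was called lower in each of these lines. CCNE1, its paralogue, was at 30.8 and 28.6 CPM in Ishikawa, 7.30 and 8.15 in HEC265, 32.1 and 31.3 in Ishikawa-S33Y, and 14.7 and 14.01 in SNGM.

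Of 30 S phase genes, 0 were higher and 17 lower in Ishikawa-S33Y than in Ishikawa, 16 and 6 in HEC265, and 5 and 16 in SNGM. Of all tested genes 20.0% were higher and 28.2% lower in Ishikawa-S33Y, and 24.9% and 38.3% in HEC265. In SNGM 38.8% were lower, of 66.8% called in all. HEC265 thus had fewer histone reads than Ishikawa with more S phase genes higher than lower. Of 27 genes of histone message synthesis and processing, 4 were higher and 10 lower in Ishikawa-S33Y, 9 and 8 in HEC265, and 8 and 14 in SNGM. Of 10 tested histone genes listed as replication-independent, 1 stood higher and 6 lower in Ishikawa-S33Y than in Ishikawa, 1 and 6 in HEC265, and 0 and 6 in SNGM. H2AFZ, which encodes H2A.Z, was at 526 and 421 CPM in Ishikawa, 275 and 275 in HEC265, 224 and 232 in Ishikawa-S33Y, and 181 and 149.6 in SNGM. H3F3B, an H3.3 gene, was at 1026 and 932 CPM in Ishikawa, 606 and 622 in HEC265, 794 and 811 in Ishikawa-S33Y, and 465 and 417 in SNGM. H1F0, a linker histone of non-dividing cells, was highest in Ishikawa-S33Y, at 531 and 517 CPM against 217 and 196 in Ishikawa.

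With SM08502 few of the 63 histone genes were called, and most of those called fell. In the fit without a covariate, the share of histone genes called lower was above that of all tested genes only in Ishikawa-S33Y. In Ishikawa, HEC265 and SNGM it was below that share. With the length score as a covariate, given below, it was above that share in every line. Whether falls were more frequent than over all tested genes in Ishikawa, HEC265 and SNGM thus depended on the fit. In Ishikawa 0 histone genes rose and 5 fell, where 15.2% of all tested genes passed, 6.50% upward and 8.68% downward. In Ishikawa-S33Y 3 rose and 11 fell (29.1% of all tested genes, 18.5% higher and 10.6% lower). In HEC265 0 rose and 2 fell (14.7% of all tested genes, 9.27% higher and 5.39% lower). In SNGM 0 were called (7.86% of all tested genes, 3.80% higher and 4.06% lower), with 6 histone genes at an unadjusted p under 0.05 and 0 called by limma voom on recovered reads. The median histone change was -0.05 in Ishikawa, -0.26 in Ishikawa-S33Y, -0.12 in HEC265 and -0.12 in SNGM, against 0.00, 0.11, 0.07 and 0.00 over all tested genes. The Ishikawa median turned to 0.02 after re-centring. As a mean over lines 3 genes rose and 11 fell (38.5% of all tested genes, 22.6% higher and 15.8% lower).

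The summed share was lower than on vehicle in HEC265 and Ishikawa-S33Y and overlapped it elsewhere. With SM08502 it was 1.34% and 2.25% in Ishikawa, 0.751% and 0.777% in HEC265, 0.658% and 0.634% in Ishikawa-S33Y, and 0.450% and 0.509% in SNGM. These values spanned those of vehicle in Ishikawa, overlapped them in SNGM, and lay below both vehicle libraries in HEC265 and Ishikawa-S33Y, where the mean was 0.887 and 0.867 of that of vehicle.

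HIST1H3J, an H3 gene at chr6:27890315-27890826, fell in Ishikawa, Ishikawa-S33Y and HEC265, the only histone gene called in 3 lines. Vehicle and SM08502 gave 98.7 and 89.05 against 26.4 and 47.01 CPM in Ishikawa, 7.39 and 6.41 against 2.62 and 2.72 in Ishikawa-S33Y, 14.02 and 12.7 against 5.36 and 4.58 in HEC265, and 47.8 and 39.8 against 31.3 and 35.6 in SNGM. Treated libraries were below vehicle in all 4 lines. The log2 change was -1.39 (SE 0.31, adjusted p = 0.00439) in Ishikawa, -1.10 (adjusted p = 0.0103) in Ishikawa-S33Y, -1.27 (adjusted p = 0.0073) in HEC265 and -0.38 (adjusted p = 0.572) in SNGM. For HIST1H3J in Ishikawa the adjusted p was 0.0507 without SM08502 replicate 1 and 0.113 in a fit on that line alone. For HIST1H3J in Ishikawa-S33Y the adjusted p was 0.0764 without vehicle replicate 1, 0.0564 without SM08502 replicate 1 and 0.0548 without SM08502 replicate 2. For HIST1H3J in HEC265 the adjusted p was 0.0693 without vehicle replicate 1 and 0.0783 without SM08502 replicate 2.

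HIST1H3D fell in Ishikawa from 101 and 95.7 to 28.5 and 27.1 CPM, with no overlap. Its change was -1.79 (limma, SE 0.13, adjusted p = 1.84e-07). That SE pools the spread of all 16 groups, and the groups of the other lines, at 0 reads, add none. It can thus be too small for Ishikawa, and the p-value too low. HIST1H2AD, inside its span, was at 130.3 and 257 CPM with SM08502 against 245 and 237 on vehicle, a difference of -0.40 (SE 0.22, adjusted p = 0.253). The treated values of HIST1H2AD spanned those of vehicle, while those of HIST1H3D did not. Between the Ishikawa duplicates HIST1H3D did not rise as most histone genes did. Its replicate 2 minus replicate 1 was -0.43 with paclitaxel and -0.07 with SM08502 on the log2 scale. With paclitaxel and with SM08502, 51 of 63 genes were higher in replicate 2 of both groups, and 5 were lower in both: HIST1H3D, HIST1H2BE, HIST2H4B and the pseudogenes HIST1H1PS1 and HIST2H2BC. These are signs only. With SM08502 HIST2H4B differed by -0.03 (10 and 9 reads) and HIST1H1PS1 by -0.06 (16 and 14 reads).

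HIST1H1D was called lower in both Ishikawa lines. In Ishikawa-S33Y it fell from 9.51 and 11.4 to 5.60 and 4.84 CPM, a change of -0.88 (SE 0.20, adjusted p = 0.00224). In Ishikawa it went from 16.2 and 13.4 to 6.07 and 11.98 CPM, a change of -0.72 (adjusted p = 0.019). For HIST1H1D in Ishikawa the adjusted p was 0.141 without vehicle replicate 1, 0.299 without SM08502 replicate 1, 0.0924 with a pseudocount of 0.1, 0.0612 after re-centring and 0.279 in a fit on that line alone. HIST1H2BF, the H2B gene opposite HIST1H2AD, was called lower in Ishikawa and HEC265 and had a difference below 0 in all 4 lines. In HEC265 it fell from 13.04 and 12.7 to 4.82 and 7.17 CPM, a change of -1.01 (limma, SE 0.23, adjusted p = 0.00461). For HIST1H2BF in HEC265 the adjusted p was 0.104 without SM08502 replicate 1. Treated libraries were below vehicle in each of these cases.

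HIST1H2AK and HIST1H2AM had the largest falls among the H2A genes in Ishikawa-S33Y. HIST1H2AM went from 115 and 115 to 64.2 and 56.3 CPM, a change of -0.92 (SE 0.23, adjusted p = 0.00477). For HIST1H2AM in Ishikawa-S33Y the adjusted p was 0.0561 without SM08502 replicate 2. HIST1H2AK went from 7.24 and 5.37 to 3.91 and 0.790 CPM, a change of -1.29 (SE 0.43, adjusted p = 0.0292). For HIST1H2AK in Ishikawa-S33Y the adjusted p was 0.169 without vehicle replicate 1, 0.0662 without vehicle replicate 2, 0.459 without SM08502 replicate 2 and 0.0669 without a level filter. The 2 treated libraries of HIST1H2AK lay further apart than those of vehicle.

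A few genes rose in Ishikawa-S33Y. HIST1H3H, an H3 gene at chr6:27810051-27810536, went from 3.20 and 4.40 to 10.5 and 12.4 CPM, a change of 1.38 (SE 0.19, adjusted p = 1.55e-05). Elsewhere it was not called: vehicle and SM08502 gave 31.8 and 37.3 against 28.04 and 28.7 CPM in Ishikawa, 168 and 162 against 128 and 133 in HEC265, and 123 and 89.5 against 97.4 and 102 in SNGM. HIST1H4I, an H4 gene that lies inside the RefSeq span of HIST1H2BK (chr6:27138293-27146858), went from 14.2 and 12.7 to 24.3 and 30.2 CPM, a change of 0.96 (adjusted p = 0.00346). For HIST1H4I in Ishikawa-S33Y the adjusted p was 0.0583 without SM08502 replicate 2. HIST1H2BE, an H2B gene, went from 3.75 and 3.27 to 6.24 and 5.88 CPM, a change of 0.65 (adjusted p = 0.00800). For HIST1H2BE in Ishikawa-S33Y the adjusted p was 0.0784 without vehicle replicate 2 and 0.0578 without SM08502 replicate 1. All of these treated values were above vehicle.

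The SM08502 change differed between the Ishikawa lines for 2 histone genes, HIST1H3D and HIST1H3H, where 2.43% of all tested genes differed. For HIST1H3H the change in Ishikawa-S33Y was greater by 1.66 (SE 0.26, adjusted p = 0.00272 by limma). For HIST1H3D the difference of 1.79 (SE 0.19) equals its fall in Ishikawa, since Ishikawa-S33Y held 0 reads. Its SE again pools groups at 0 reads and can be too small. Without Ishikawa SM08502 replicate 1 the count was 6, and with the length score as a covariate it was 6, where 11.2% of all tested genes differed.

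**Figure D3:**
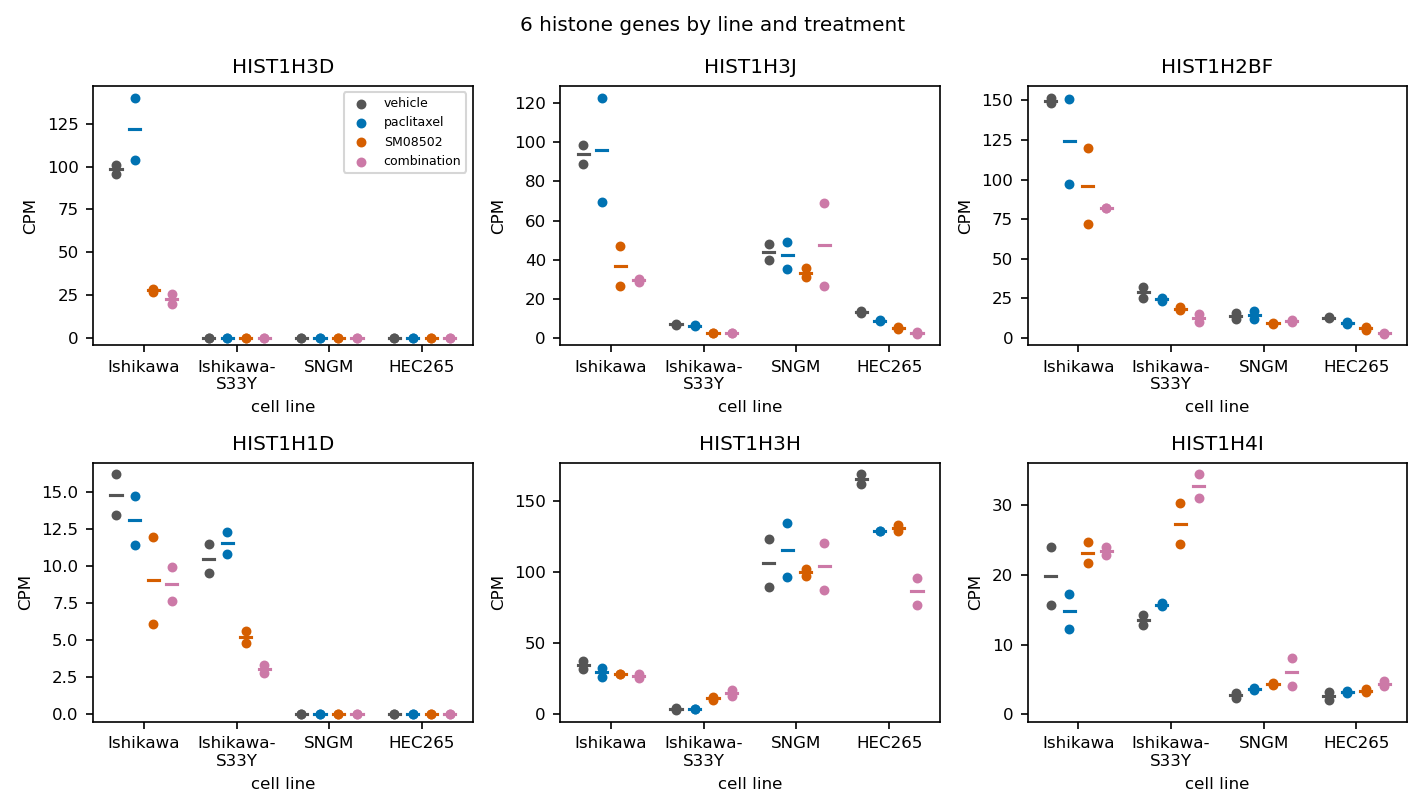
CPM of 6 histone genes in each library (points) with the mean of each pair (bars), by line and treatment, on linear axes. HIST1H3D is at 0 outside Ishikawa and drops with SM08502 there, HIST1H3J drops in Ishikawa, Ishikawa-S33Y and HEC265, and HIST1H3H rises from 3.20 and 4.40 to 10.5 and 12.4 CPM in Ishikawa-S33Y.

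Counts with SM08502 depended on single libraries. The 5 called in Ishikawa became 2 without vehicle replicate 1. The 14 called in Ishikawa-S33Y became 7, 6 and 4 without vehicle replicate 1, vehicle replicate 2 and SM08502 replicate 2. The 2 in HEC265 became 1 without vehicle replicate 1 or SM08502 replicate 2, and the 14 of the mean over lines became 28 without Ishikawa SM08502 replicate 2. With the length score as a covariate 12 genes fell and 1 rose in Ishikawa, 20 and 1 in HEC265, 29 and 4 in Ishikawa-S33Y, and 10 and 0 in SNGM. In that fit 13.2% of all tested genes fell and 10.8% rose in Ishikawa, 7.67% and 17.0% in HEC265, 13.7% and 26.0% in Ishikawa-S33Y, and 7.58% and 9.80% in SNGM.

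Some genes that make or process histone messages rose with SM08502. Of 27, 2 rose and 0 fell in Ishikawa, 4 and 2 in HEC265, 7 and 2 in Ishikawa-S33Y, and 3 and 0 in SNGM. The share that rose was 7.41% in Ishikawa, 14.8% in HEC265, 25.9% in Ishikawa-S33Y and 11.1% in SNGM, against 6.50%, 9.27%, 18.5% and 3.80% of all tested genes. CASP8AP2 went from 35.1 and 34.3 to 62.2 and 68.6 CPM in Ishikawa-S33Y, a change of 0.89 (SE 0.17, adjusted p = 0.00063), and rose by 0.54 in HEC265 (adjusted p = 0.0401). NPAT rose from 65.3 and 66.6 to 84.3 and 85.7 CPM in Ishikawa-S33Y, a change of 0.36 (adjusted p = 0.0122). CASP8AP2 and NPAT were above vehicle in both treated libraries there. The next 3 genes were chosen after their values were seen. ZNF473, a zinc finger protein of the U7 particle, went from 25.8 and 25.99 to 61.2 and 60.04 CPM in Ishikawa-S33Y and from 22.5 and 20.7 to 42.8 and 38.9 in HEC265, and rose in SNGM too. HINFP, a transcription factor of H4 genes, went from 22.4 and 20.3 to 41.2 and 41.8 CPM in Ishikawa-S33Y and rose in Ishikawa and HEC265. CDK9, a kinase of transcript elongation, rose in all 4 lines, by 0.78 in Ishikawa, 1.22 in Ishikawa-S33Y, 1.03 in HEC265 and 0.68 in SNGM.

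SLBP was not called with SM08502 in any line, with differences from -0.22 in SNGM to 0.14 in HEC265. Nor were LSM11, a U7 particle protein, ERI1, a nuclease of histone message decay, or CCNE2 and E2F1, which act at entry into S phase. CCNE1 fell in Ishikawa-S33Y from 32.1 and 31.3 to 19.3 and 17.5 CPM, a change of -0.75 (adjusted p = 9.53e-05). H2AFZ, H3F3B and H1F0 were not called.

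Counts for the other lists stand beside the shares of all tested genes with SM08502, which were 6.50% higher and 8.68% lower in Ishikawa, 9.27% and 5.39% in HEC265, 18.5% and 10.6% in Ishikawa-S33Y, and 3.80% and 4.06% in SNGM. Of 30 S phase genes, 0 rose and 4 fell in Ishikawa, 4 and 1 in HEC265, 4 and 6 in Ishikawa-S33Y, and 0 and 2 in SNGM. The S phase genes that rose were 13.3% in HEC265 and 13.3% in Ishikawa-S33Y, the latter below the share of all tested genes. Of 20 mitosis genes, 1 rose and 1 fell in Ishikawa, 0 and 3 in HEC265, 12 and 0 in Ishikawa-S33Y, and 0 and 9 in SNGM. The mitosis genes that rose in Ishikawa-S33Y were 60.0% of the list, and those that fell in SNGM 45.0%. Differences between lines in these counts were not tested. Of 21 histone chaperones, 1 rose and 3 fell in Ishikawa, 3 and 2 in HEC265, 2 and 5 in Ishikawa-S33Y, and 0 and 4 in SNGM. Of 10 replication-independent histone genes, 0 rose and 0 fell in Ishikawa, 1 and 1 in HEC265, 3 and 1 in Ishikawa-S33Y, and 0 and 1 in SNGM. The part of the cell cycle in the histone changes was not tested.

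With paclitaxel 0 histone genes were called in each line by limma, where 0.0118% of all tested genes were called in Ishikawa, 0% in Ishikawa-S33Y, 0.00588% in HEC265 and 0.0176% in SNGM. Without adjustment, p was under 0.05 for 1, 3, 0 and 1 histone genes in that order, and limma voom also called 0. As a mean over lines 0 were called (0% of all tested genes), with 2 at an unadjusted p under 0.05. Single differences ran from -0.64 in Ishikawa-S33Y to 1.03 in SNGM on the log2 scale. HIST1H3D was at 139.97 and 104 CPM against 101 and 95.7 in Ishikawa, a difference of 0.29 (SE 0.13, adjusted p = 0.661). HIST1H3J was at 8.94 and 8.51 against 14.02 and 12.7 CPM in HEC265, below vehicle but not called (-0.56, adjusted p = 1.00). The summed share was 1.33% and 2.04% in Ishikawa, 0.769% and 0.763% in HEC265, 0.670% and 0.708% in Ishikawa-S33Y, and 0.629% and 0.485% in SNGM, below both vehicle libraries in HEC265 and Ishikawa-S33Y and overlapping them in SNGM and Ishikawa. No gene of the lists of histone processing, chaperones, variants, S phase or mitosis was called with paclitaxel.

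The combination gave more called histone genes than SM08502 did in each line, as it did over all tested genes, and the difference between these treatments was not tested. In Ishikawa and SNGM the share of histone genes called was below that of all tested genes. The share that fell was close to that of all tested genes in Ishikawa and below it in SNGM. With the length score as a covariate, given below, the share that fell was above that of all tested genes in every line. In Ishikawa 0 rose and 8 fell, where 22.8% of all tested genes passed, 11.6% upward and 11.2% downward. In Ishikawa-S33Y 7 rose and 26 fell (42.0% of all tested genes, 24.0% higher and 18.0% lower). In HEC265 0 rose and 15 fell (19.5% of all tested genes, 12.4% higher and 7.16% lower), and in SNGM 2 rose and 1 fell (18.4% of all tested genes, 10.8% higher and 7.54% lower). The median change was -0.12 in Ishikawa, -0.45 in Ishikawa-S33Y, -0.39 in HEC265 and 0.00 in SNGM, against 0.03, 0.06, 0.09 and 0.00 over all tested genes. As a mean over lines 3 rose and 31 fell (49.1% of all tested genes, 29.0% higher and 20.1% lower). In Ishikawa-S33Y the genes that fell comprised 2 of 5 H1 genes, 9 of 16 H2A genes, 8 of 19 H2B genes, 3 of 11 H3 genes and 4 of 12 H4 genes.

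The summed share with the combination was 1.66% and 1.70% in Ishikawa, 0.648% and 0.542% in HEC265, 0.538% and 0.500% in Ishikawa-S33Y, and 0.443% and 0.619% in SNGM. It lay below both vehicle libraries in HEC265 and Ishikawa-S33Y, where the mean was 0.690 and 0.697 of that of vehicle. In Ishikawa it was within the range of vehicle, and in SNGM it was on either side of it. The length score of these libraries was -1.76 and -1.47 in Ishikawa-S33Y against -1.13 and -1.27 on vehicle, and -1.09 and -0.94 in HEC265 against -0.62 and -0.72, so a lower share came with a lower score, opposite to the Ishikawa duplicates.

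HIST1H3J and HIST1H2BF fell in 3 lines. HIST1H3J was at 29.98 and 28.8 CPM in Ishikawa, 2.36 and 2.67 in Ishikawa-S33Y and 2.999 and 2.25 in HEC265, all below vehicle, with changes of -1.64 (SE 0.31, adjusted p = 0.000801), -1.17 (adjusted p = 0.00446) and -1.996 (adjusted p = 9.7e-05). In SNGM it was at 26.4 and 69.1 CPM, on either side of vehicle, and the higher value came from the library of 1.61 M reads. For HIST1H3J in Ishikawa the adjusted p was 0.058 in a fit on that line alone. HIST1H2BF went from 152 and 148 to 81.7 and 81.8 CPM in Ishikawa, from 25.5 and 32.03 to 14.9 and 10.4 in Ishikawa-S33Y, and from 13.04 and 12.7 to 3.21 and 2.58 in HEC265, with no overlap. Its changes were -0.87 (adjusted p = 0.0102), -1.14 (adjusted p = 0.000469) and -1.84 (adjusted p = 9.81e-06). For HIST1H2BF in Ishikawa the adjusted p was 0.0539 without vehicle replicate 1, 0.0548 without vehicle replicate 2, 0.0559 without combination replicate 1, 0.0635 without combination replicate 2 and 0.135 in a fit on that line alone. HIST1H3D fell to 20.1 and 25.7 CPM in Ishikawa (-2.07, limma, SE 0.13, adjusted p = 1.16e-08). Here too the SE of HIST1H3D pools groups at 0 reads and can be too small.

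Linker and H2A genes fell in Ishikawa-S33Y. HIST1H1D was at 2.77 and 3.34 CPM against 9.51 and 11.4 on vehicle (-1.50, SE 0.20, adjusted p = 5.29e-06). HIST1H2AL was at 3.70 and 3.01 against 11.5 and 11.2 (-1.51, SE 0.24, adjusted p = 3.22e-05). HIST1H2AK was at 0.565 and 0.669 CPM against 7.24 and 5.37 (-2.16, SE 0.43, adjusted p = 0.000421), and its value in replicate 2 is 2 reads in the shallow library of 2.99 M reads. All of these treated values lay below vehicle. In HEC265 HIST1H2AD was at 39.7 and 24.98 CPM against 64.01 and 64.2 (-1.002, adjusted p = 0.00283). For HIST1H2AD in HEC265 the adjusted p was 0.103 without combination replicate 2.

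Among the genes with the most reads in their class, HIST1H4J fell in Ishikawa-S33Y from 350.2 and 402 to 213 and 163 CPM (-1.01, adjusted p = 0.00499). HIST1H1C was not called in any line, with 313 and 368 CPM against 472 and 459 in Ishikawa-S33Y (adjusted p = 0.0971) and 485 and 392 against 636 and 635 in HEC265 (adjusted p = 0.0847). HIST1H3B was at 250.3 and 253 against 382 and 369.7 CPM in Ishikawa-S33Y (-0.58, adjusted p = 0.0501, not called) and fell in HEC265, to 461 and 385 from 681 and 664 CPM (-0.67, adjusted p = 0.0446). Treated libraries were below vehicle for each of these genes in these lines.

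HIST1H3H moved in opposite directions in 2 lines. With the combination it rose in Ishikawa-S33Y from 3.20 and 4.40 to 16.96 and 12.7 CPM (1.72, SE 0.19, adjusted p = 4.41e-07). In HEC265 it fell from 168 and 162 to 95.7 and 77.1 CPM (-0.94, adjusted p = 0.00106). The groups did not overlap in either line, and the difference between the changes was not tested. HIST1H4I rose in Ishikawa-S33Y to 30.9 and 34.4 CPM (1.22, SE 0.23, adjusted p = 0.000243). In SNGM it was at 4.04 and 8.09 against 3.13 and 2.40 CPM (0.85, adjusted p = 0.0133). For HIST1H4I in SNGM the adjusted p was 0.132 without vehicle replicate 2, 0.291 without combination replicate 2, 0.136 by limma voom and 0.183 in a fit on that line alone. HIST1H2BE was at 1.97 and 1.87 against 1.02 and 1.05 CPM there (0.52, adjusted p = 0.0434). The value of 1.87 CPM is 3 reads in the library of 1.61 M reads, where a level near 1 CPM could not be measured. HIST1H2BM was at 5.82 and 3.73 against 9.32 and 9.76 (-0.89, adjusted p = 0.0115) in SNGM. For HIST1H2BE in SNGM the adjusted p was 0.147 without vehicle replicate 1, 0.149 without vehicle replicate 2, 0.0687 without combination replicate 1, 0.114 without combination replicate 2, 0.086 without a level filter and 0.0607 in a fit on that line alone. For HIST1H2BM in SNGM the adjusted p was 0.0508 without vehicle replicate 1, 0.0789 without vehicle replicate 2, 0.163 without combination replicate 2, 0.188 with a pseudocount of 0.1, 0.0622 by limma voom and 0.0999 in a fit on that line alone.

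HIST2H2AA3, which has a near-identical neighbour in HIST2H2AA4, was called higher in Ishikawa-S33Y with the combination (1.02, adjusted p = 0.0164). The sum of both copies was 616 ± 7.67 CPM on vehicle and 735 ± 82.8 with the combination (SD, n = 2). How reads were split between the copies is not given in the sources used here. For HIST2H2AA3 in Ishikawa-S33Y the adjusted p was 0.173 without vehicle replicate 1 and 0.0998 without combination replicate 2.

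**Figure D4:**
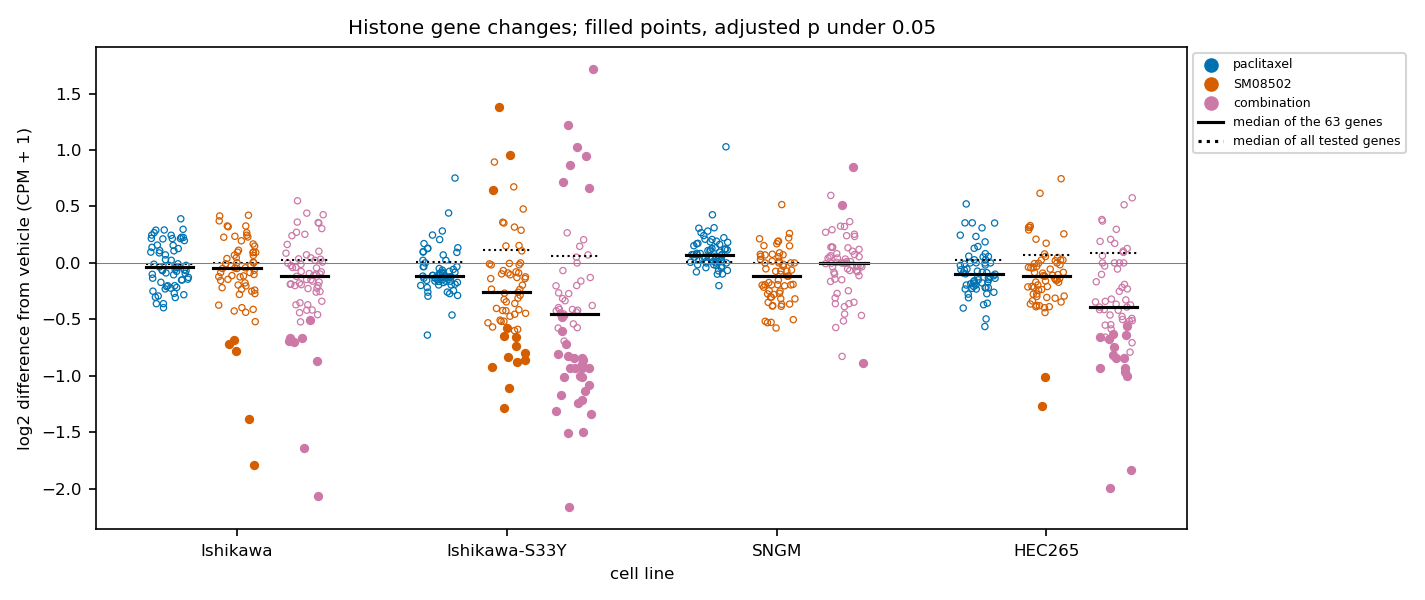
Log2 difference from vehicle of each of the 63 histone genes (points, filled where the adjusted p is under 0.05) for each drug and line, with the median of the histone genes (solid line) and of all tested genes (dotted line). With the combination the solid lines are at -0.45 in Ishikawa-S33Y and -0.39 in HEC265, below dotted lines at 0.06 and 0.09.

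Counts with the combination also depended on single libraries. The 8 called in Ishikawa became 4, 2 and 4 without vehicle replicate 1, combination replicate 1 and combination replicate 2. The 15 in HEC265 became 7 without either vehicle library and 3 without combination replicate 2. The 3 in SNGM became 0 without combination replicate 2 or vehicle replicate 2, 1 without vehicle replicate 1, and 8 without combination replicate 1. With the length score as a covariate 26 genes fell and 1 rose in Ishikawa, 37 and 1 in HEC265, 44 and 7 in Ishikawa-S33Y, and 12 and 3 in SNGM. In that fit 12.8% of all tested genes fell and 15.3% rose in Ishikawa, 9.35% and 20.7% in HEC265, 19.7% and 30.5% in Ishikawa-S33Y, and 10.2% and 17.2% in SNGM.

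Of 27 genes that act on histone messages, 6 rose and 1 fell in Ishikawa, 7 and 1 in HEC265, 11 and 4 in Ishikawa-S33Y, and 7 and 0 in SNGM with the combination. The share that rose was 22.2% in Ishikawa, 25.9% in HEC265, 40.7% in Ishikawa-S33Y and 25.9% in SNGM. Of all tested genes 11.6%, 12.4%, 24.0% and 10.8% rose and 11.2%, 7.16%, 18.0% and 7.54% fell, so rises also outnumbered falls over all genes. CASP8AP2 was at 81.4 and 86.6 CPM in Ishikawa-S33Y (1.25, adjusted p = 8.96e-06) and also rose in Ishikawa and HEC265. SLBP rose in Ishikawa-S33Y from 35.2 and 33.9 to 44.3 and 44.8 CPM (0.36, adjusted p = 0.00391) and was not called in the other lines. NPAT rose by 0.48 in Ishikawa-S33Y (adjusted p = 0.00078) and 0.32 in HEC265 (adjusted p = 0.0328). CCNE2 rose by 0.55 in Ishikawa-S33Y (adjusted p = 0.0181) and 0.62 in HEC265 (adjusted p = 0.0175). The change of CCNE1 was -0.78 in Ishikawa-S33Y (adjusted p = 3.07e-05). E2F1, a transcription factor of S phase genes, fell in Ishikawa (-0.52, adjusted p = 0.0292). H2AFZ rose in Ishikawa-S33Y from 224 and 232 to 319 and 313 CPM (0.47, adjusted p = 0.0271).

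The counts for the other lists with the combination stand beside the same shares of all tested genes, and differences between lines in them were not tested. Of 30 S phase genes, 1 rose and 7 fell in Ishikawa, 4 and 2 in HEC265, 6 and 9 in Ishikawa-S33Y, and 0 and 2 in SNGM. Of 20 mitosis genes, 2 rose and 0 fell in Ishikawa, 0 and 3 in HEC265, 15 and 0 in Ishikawa-S33Y, and 0 and 12 in SNGM. Of 21 histone chaperones, 1 rose and 6 fell in Ishikawa, 1 and 4 in HEC265, 4 and 7 in Ishikawa-S33Y, and 1 and 3 in SNGM. Of 10 replication-independent histone genes, 0 rose and 0 fell in Ishikawa, 1 and 1 in HEC265, 5 and 2 in Ishikawa-S33Y, and 0 and 1 in SNGM. The treatments share their vehicle libraries within a line, so their changes are not independent of each other.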

How the data were processed

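Gene levels were measured by RNA sequencing in 32 libraries, 2 in each of 16 groups of line and treatment taken from the labels. The authors deposited log10(CPM + 1) for 35238 genes; the log10 unit was checked on the values, since CPM taken back from them total 1000000 for every library. Whole reads were recovered for 100% of values (tolerance 0.01) and gave the depth of each library. STAR, kallisto, bcl2fastq and GRCh38 are named in the submitters' processing notes, without roles, and the counting program, its strand setting and the annotation are not given in the sources used here. Tables of splicing events are not analysed here.

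Values were tested as log2(CPM + 1), which understates changes of low genes. The 17011 genes above 1 CPM in at least 2 libraries were fitted in R 4.3.3 with limma 3.58.1, using 16 group means, 16 residual degrees of freedom and an intensity trend. The residual spread is pooled over all groups, so a line at 0 reads for a gene adds no spread to its SE. Two-sided p-values of 22 contrasts were each adjusted over the 17011 genes (Benjamini-Hochberg), with calls at an adjusted p under 0.05. The test had been planned for log2 CPM, and the deposited unit turned out to be log10. The procedure was tested on simulated data with known changes.

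The histone genes, the gene lists and the naming rule were chosen with earlier results of these data known. Genes were named with full statistics when fixed by name (HIST1H3D, SLBP, NPAT, CASP8AP2, LSM11, ERI1, CCNE1, CCNE2, E2F1, H2AFZ, H3F3B and H1F0) or when they had the most reads of a class. Also named were the 3 largest rises and 3 largest falls of a drug contrast in a line, and the 2 highest and 2 lowest of a line pair, at a mean log2(CPM + 1) of at least 1. Values of other histone genes are given by group or for neighbours and copies of these. Of a list of 13 RNAs without poly(A) tails, 0 passed the level filter. Gene positions and promoters come from RefSeq tables of GRCh38.p14, not necessarily the annotation behind the counts, and all 63 histone genes matched by symbol or synonym. Python 3.11.15, pandas 2.3.3, numpy 2.4.6 and matplotlib 3.10.9 were used. Alternatives were no level filter, a stricter one (mean log2(CPM + 1) of at least 2), a pseudocount of 0.1, re-centring, limma voom on the recovered reads, the length score as a covariate, the compared lines alone, a replicate block and leaving out each library.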

Additional observations from a re-analysis of the deposited data

Results flagged for a closer look

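The SM08502 change of HIST1H3D was greater by 1.79 in Ishikawa-S33Y than in Ishikawa on the log2 scale (SE 0.19, adjusted p = 4.74e-05 by limma), a difference between lines under the same contrast. Ishikawa-S33Y held 0 reads for the gene in all 8 libraries, so the value is the fall in Ishikawa, in 2 of 2 treated libraries, and says nothing of a response in Ishikawa-S33Y. The SE pools groups at 0 reads, so it can be too small for Ishikawa, and the p-value too low. The SM08502 change of HIST1H3H was greater by 1.66 in Ishikawa-S33Y than in Ishikawa (SE 0.26, adjusted p = 0.00272). Its levels rose in 2 of 2 treated libraries of Ishikawa-S33Y, from 3.20 and 4.40 to 10.5 and 12.4 CPM, and were 31.8 and 37.3 on vehicle and 28.04 and 28.7 with SM08502 in Ishikawa. The doses were 85 nM and 80 nM, and their part in the difference was not tested.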

How the results depend on the processing

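Of 173 counts of called histone genes under alternatives in 22 comparisons, 148 were within 1.5 times the reported count. These 173 leave out the fits without a library, which are given below. A count of 0 where 0 was reported was taken as within, and every reported count with paclitaxel was 0. Of 576 alternative values of 49 named results, 0 changed direction and 47 lost their call, 32 of them where a library was left out. The level filters, the fits on the compared lines alone and the replicate block leave each difference unchanged, so its direction could not change there. The 49 results were also picked from these data as large called differences, so the lack of direction changes is no test of them. With the length score as a covariate SM08502 gave 13 calls in Ishikawa, 33 in Ishikawa-S33Y, 21 in HEC265, 10 in SNGM and 43 as a mean over lines, and the combination gave 27, 51, 38 and 15 in the lines in that order. Fitted on the line alone, SM08502 gave 1 call in Ishikawa, 28 in Ishikawa-S33Y and 13 in HEC265, and the combination 1 in Ishikawa, 38 in HEC265 and 0 in SNGM. In Ishikawa a pseudocount of 0.1, the stricter filter and re-centring gave 2, 2 and 2 calls for SM08502 and 5, 4 and 4 for the combination, and a pseudocount of 0.1 gave 4 for SM08502 in HEC265. The difference of the SM08502 change between the Ishikawa lines gave 1 call under the stricter filter, 1 by limma voom and 6 with the length score. The causes of these shifts were not tested, apart from the stricter filter, which tests fewer genes.

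Leaving out each library gave 2 to 7 calls for SM08502 in Ishikawa, 4 to 10 in Ishikawa-S33Y, 1 to 2 in HEC265, 0 in SNGM and 10 to 28 as a mean over lines. For the combination it gave 2 to 7, 23 to 30, 3 to 11 and 0 to 8 in the lines in that order, and 27 to 40 as a mean over lines. The difference between the Ishikawa lines ran from 2 to 6. A lone library left in a group was assumed to vary like the other groups.

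Same-numbered duplicates were not shown to be paired: deviations correlated at r between -0.54 and 0.85 for Ishikawa, -0.59 and 0.79 for SNGM, -0.12 and 0.26 for HEC265, and -0.06 and 0.13 for Ishikawa-S33Y, over 8488 genes, which are not independent. With the replicate block, SM08502 gave 6 calls in Ishikawa, 15 in Ishikawa-S33Y, 2 in HEC265 and 0 in SNGM, and the combination 8, 33, 17 and 3. HIST1H2BE in SNGM with the combination was not called with the block (adjusted p = 0.0578). In the shallow combination libraries a count of 3 reads equals 1.87 CPM in SNGM and 1.00 CPM in Ishikawa-S33Y, so genes near 1 CPM could not be measured there.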
